A study of Mus musculus with 12 samples.

Results

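Nuclei captured as microglial from the mouse spinal cord 7 days after injury were compared with nuclei from sham-operated cords, over all genes of the count table. The comparison holds 6 of the 12 libraries of the series: sham replicates 2, 3 and 4 and 7-day replicates 1, 3 and 4. Per the labels, the mice of both groups were C57BL/6 and the sham libraries carry the time label of 7 days as well. The labels name no allele, although the capture needs mice with green fluorescent protein (GFP) in nuclei. The other 6 libraries were 3 at 3 days and 3 at 14 days after injury. They entered the same model and its estimate of spread, also for the test of 7 days against sham. Their levels are compared mainly near the end. Each library pools cord from both sides of the lesion of 3 animals, so a value averages over animals and the p-values measure the spread between pools. Nuclei were separated on a density gradient and those carrying GFP were pulled out with an antibody and magnetic beads. The promoter that drives GFP is not given in the sources used here, so which cells other than microglia could carry it is not known, and RNA of the cytoplasm was largely left behind.

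Microglia are the resident macrophages of the central nervous system. In the intact cord they hold a homeostatic state, marked by purinergic receptors, Tmem119 and transcription factors such as Sall1. After injury they migrate to the lesion, divide, take up myelin debris and dying cells, digest this material in lysosomes, and export the cholesterol they take in through ABC transporters. A damage-associated state is known from demyelination and neurodegeneration, in which genes of lipid handling, lysosomes and secreted proteins such as Spp1, Gpnmb and Igf1 are raised. Microglia also answer type I interferon and release chemokines that draw in other leukocytes. The title of the series names the axon-guidance receptor Plexin-B2 in these cells, and the comparison gives its level beside everything else at 7 days.

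Levels are counts scaled to a common library total (CPM), after TMM, a scaling between libraries that takes most genes as equal. Values of 3 libraries are always in the order sham replicates 2, 3 and 4, then 7-day replicates 1, 3 and 4. A change is a log2 fold change of 7 days over sham ± its standard error, and a gene is called higher or lower where edgeR's quasi-likelihood test, adjusted by Benjamini-Hochberg over all 18451 genes with enough counts to test, gives a p under 0.05. Total counts were 4003480 to 7064757 in sham and 5047851 to 7232561 at 7 days. The defining microglial markers were present in all 6 libraries: the 12 markers summed to 8048, 6843 and 6281 CPM in sham and 6837, 7166 and 5955 CPM at 7 days, and edgeR called 0 of the 12 higher or lower (2 lower at an unadjusted p under 0.05, and 2 by DESeq2). The sums of gene lists are CPM of the library total, without TMM. Sham replicate 4 stood apart from the other 11 libraries, at 119.8 on the second component of log2 CPM with the next library at 26.75. It also held the highest sums of neuron, astrocyte, endothelial and fibroblast markers among the sham libraries, so results are given with and without it where that matters. The pools also differed in sex-linked genes: the 4 Y-linked genes summed to 0.708, 374 and 309 CPM in sham and 9.51, 703 and 568 CPM at 7 days.

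At 7 days 851 genes were higher than in sham, 4.61% of the 18451 tested, and 861 were lower, 4.67%. The median log2 fold change over all tested genes was 0.01, and that of the absolute change of the called genes was 1.35, so the called genes moved by more than a doubling at the median. Of the genes called higher, 538 rose by at least 1 on the log2 scale, and of those called lower, 703 fell by at least 1. In 834 of the 851 higher genes and 809 of the 861 lower genes the 3 libraries of each group did not overlap, against 4201 of all 18451 tested. Protein-coding genes made up 705 of the higher and 736 of the lower calls, of 13904 tested. Among 595 long intergenic noncoding RNAs tested, 35 were higher and 12 lower.

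**Figure D1:**
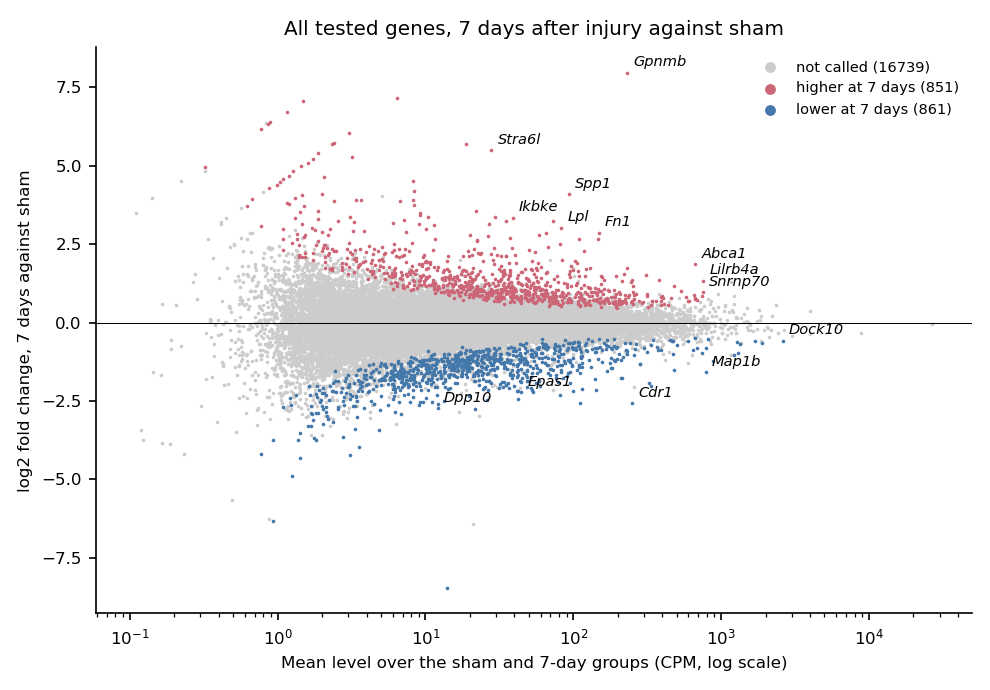
Mean level over the 6 libraries (CPM, log axis) against the log2 fold change of 7 days over sham, with 1 point per tested gene and called genes in colour. Among the labelled genes rises reach further from 0 than falls: Gpnmb lies at 7.97, while the lowest, Dpp10, lies at -2.74. BC018473, a noncoding RNA described below, is not labelled and lies lower than Dpp10.

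The calls lean on which libraries enter the estimate of spread. Log2 levels of libraries within a group correlated at 0.902 to 0.955 in sham and 0.96 to 0.967 at 7 days. They correlated at 0.97 to 0.978 at 3 days and 0.979 to 0.984 at 14 days. The shared estimate therefore draws on groups that were more even than the 2 compared. The effect of this on the p-values was not tested. A fit of the 6 libraries alone, without the spread learned from the other times, called 115 genes higher and 57 lower. The counts of higher and lower genes were 1480 and 1585 without sham replicate 2, 771 and 571 without sham replicate 4, 503 and 324 without 7-day replicate 1, 709 and 565 without 7-day replicate 3, and 453 and 494 without 7-day replicate 4. Without sham replicate 4, 610 of the 851 higher calls (71.7%) and 461 of the 861 lower calls (53.5%) were still called, and all 1712 genes kept their direction. In 72.7% of the genes called lower, sham replicate 4 was the highest of the 3 sham libraries, against 40.7% of all tested genes. The median change of the lower genes went from -1.45 to -1.13 without it. Genes named below are by preference those that stayed called when any 1 of the 6 libraries was left out, and the exceptions are given beside their values.

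Gpnmb rose furthest. The gene encodes a transmembrane glycoprotein of the endosomal and lysosomal system of phagocytes (ENSMUSG00000029816, chromosome 6, 49036546 to 49070929, plus strand, GRCm38 as for all positions). It stood at 1.36, 2.29 and 1.96 CPM in sham and 229, 617 and 536 at 7 days. Gpnmb changed by 7.97 ± 0.42 (edgeR adjusted p = 1.15e-07). Even the lowest 7-day library, replicate 1, was far above every sham library. Stra6l, which encodes a receptor for retinol-binding protein (ENSMUSG00000028327, chromosome 4, 45848664 to 45887008, plus strand), stood at 1.06, 0.686 and 1.96 CPM in sham and 37.3, 69.6 and 57 at 7 days. Stra6l changed by 5.51 ± 0.35 (edgeR adjusted p = 7.72e-07). Spp1, the secreted matrix protein osteopontin (ENSMUSG00000029304, chromosome 5, 104435118 to 104441050, plus strand), stood at 5.6, 13.3 and 13.2 CPM in sham and 88, 267 and 175 at 7 days. Spp1 changed by 4.09 ± 0.41 (edgeR adjusted p = 6.19e-05). In all 3 genes replicate 1 was the lowest of the 7-day libraries and replicate 3 the highest. Fam20c encodes a kinase that phosphorylates secreted proteins, osteopontin among them (ENSMUSG00000025854, chromosome 5, 138754514 to 138810077, plus strand), and stood at 5.15, 7.09 and 3.08 CPM in sham and 32.7, 38.9 and 89.7 at 7 days. Fam20c changed by 3.38 ± 0.38 (edgeR adjusted p = 0.00015). Replicate 4 was the high library for this gene, and the groups still did not overlap.

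The rest of the 15 largest rises were spread over enzymes, receptors and matrix proteins. Ikbke, a kinase that turns on interferon production and NF-kB signalling (ENSMUSG00000042349, chromosome 1, 131254343 to 131279606, minus strand), stood at 4.84, 6.86 and 9.52 CPM in sham and 50.5, 70.6 and 90.3 at 7 days. Ikbke changed by 3.35 ± 0.28 (edgeR adjusted p = 2.13e-05). Cd300lf, a receptor of the CD300 family with inhibitory motifs (ENSMUSG00000047798, chromosome 11, 115116214 to 115133992, minus strand), stood at 13.9, 15.8 and 12 CPM in sham and 144, 135 and 118 at 7 days. Cd300lf changed by 3.25 ± 0.21 (edgeR adjusted p = 7.72e-07). The spread of Cd300lf within each group was small beside the gap between the groups, and it shared the second-smallest adjusted p of the named genes with Stra6l. It overlaps Rab37 on the opposite strand, and whether the counting used strand is not given in the sources used here. Xdh, which encodes the uric-acid-forming enzyme xanthine dehydrogenase (ENSMUSG00000024066, chromosome 17, 73883895 to 73950196, minus strand), stood at 14.8, 13.5 and 19.6 CPM in sham and 68.5, 140.2 and 137 at 7 days. Xdh changed by 2.86 ± 0.27 (edgeR adjusted p = 3.92e-05). Adgb, encoding androglobin, a globin best known from testis (ENSMUSG00000050994, chromosome 10, 10335703 to 10472326, minus strand), stood at 12.7, 11 and 21.3 CPM in sham and 50.7, 132 and 122 at 7 days. Adgb changed by 2.78 ± 0.33 (edgeR adjusted p = 0.000227). For both Xdh and Adgb, 7-day replicate 1 was lower than replicates 3 and 4 and still above every sham library.

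Hpse encodes heparanase, which cuts heparan sulfate chains of the matrix (ENSMUSG00000035273, chromosome 5, 100679484 to 100719716, minus strand), and stood at 0.454, 1.14 and 5.88 CPM in sham and 9.43, 23.8 and 19.9 at 7 days. Its change of 2.99 ± 0.57 (edgeR adjusted p = 0.00636) became 4.54 (edgeR adjusted p = 6.09e-05) without sham replicate 4, the high sham library. H2-Q6, a class I histocompatibility gene, had a change of 3.14 ± 0.39 (edgeR adjusted p = 0.000301), but near-identical copies in that family could share its reads. Cspg4, Fabp5, Lpl, Lgals3 and Fn1 complete the 15 and are described with their groups below. By difference in mean CPM rather than ratio, the 6 largest rises included the sterol exporter Abca1, Gpnmb and Lilrb4a, an inhibitory immunoglobulin-like receptor, at 347, 397 and 547 CPM in sham and 676, 1322 and 1269 at 7 days (1.34 ± 0.23, edgeR adjusted p = 0.0034). Lilrb4a overlaps Lilr4b on the same strand, and their reads could be shared.

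**Figure D2:**
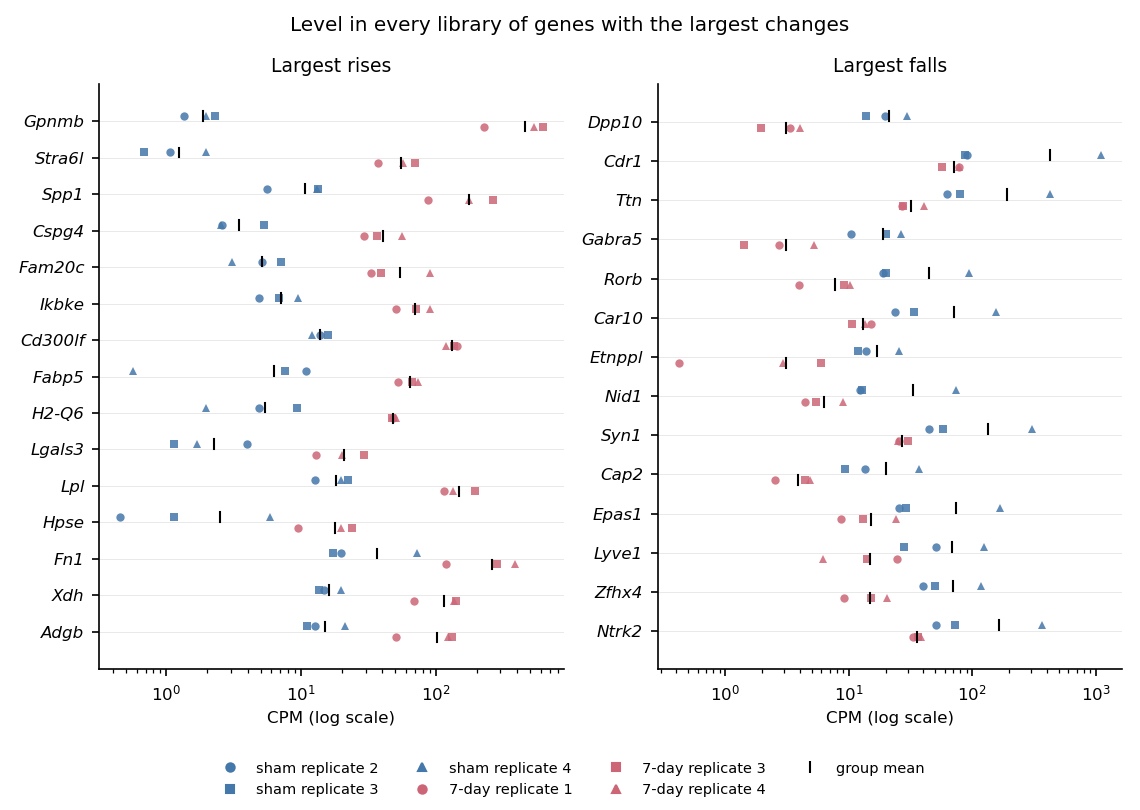
Level in each of the 6 libraries (CPM, log axis) for the 15 largest rises and for 14 of the 15 largest falls, with 1 point per library and sham and 7 days in separate colours. The groups do not overlap for any gene shown, which the naming rule required, and for most falls 1 sham library, replicate 4, lies far to the right of the other 2.

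BC018473 aside, the largest falls were smaller than the largest rises, and most of them rested in part on sham replicate 4. Dpp10, an auxiliary subunit of neuronal potassium channels (ENSMUSG00000036815, chromosome 1, 123321471 to 124045559, minus strand), stood at 19.8, 13.9 and 29.4 CPM in sham and 3.35, 1.94 and 4.01 at 7 days. Dpp10 changed by -2.74 ± 0.45 (edgeR adjusted p = 0.0023). Zfhx4, a zinc-finger homeobox transcription factor (ENSMUSG00000025255, chromosome 3, 5218526 to 5415857, plus strand), stood at 40.1, 50.3 and 118 CPM in sham and 9.22, 15.1 and 20.5 at 7 days. Zfhx4 changed by -2.19 ± 0.41 (edgeR adjusted p = 0.00535). Gabra5, a GABA-A receptor subunit (ENSMUSG00000055078, chromosome 7, 57407672 to 57510059, minus strand), stood at 10.4, 20.1 and 26.3 CPM in sham and 2.72, 1.41 and 5.22 at 7 days. Gabra5 changed by -2.55 ± 0.46 (edgeR adjusted p = 0.00487), and another gene overlaps it on the opposite strand. These 3 genes were called under each of the 15 other settings tried. Cdr1 and Ttn show the other case. Cdr1 stood at 91.3, 88 and 1099 CPM in sham and 77.5, 57.1 and 78.6 at 7 days. Its change of -2.58 ± 0.74 (edgeR adjusted p = 0.0403) was lost without sham replicate 4 (-0.34, 0.569), 7-day replicate 1 (-2.63, 0.117), 7-day replicate 3 (-2.44, 0.105) or 7-day replicate 4 (-2.7, 0.0975). Ttn stood at 61.9, 80.2 and 428 CPM in sham and 26.8, 27.3 and 40.8 at 7 days. Ttn changed by -2.57 ± 0.76 (edgeR adjusted p = 0.045), lost without sham replicate 4 (-1.16, 0.27), 7-day replicate 1 (-2.46, 0.147), 7-day replicate 3 (-2.48, 0.11) or 7-day replicate 4 (-2.84, 0.0919). Epas1, which encodes the hypoxia-inducible factor HIF-2alpha, stood at 25.3, 28.8 and 166 CPM in sham and 8.59, 13 and 24.1 at 7 days. Epas1 changed by -2.23 ± 0.62 (edgeR adjusted p = 0.0369), lost without sham replicate 4 (-0.8, 0.257), 7-day replicate 1 (-1.95, 0.138) or 7-day replicate 3 (-2.12, 0.0946). Car10 and Cap2 kept their calls when any library was left out, but their falls shrank from -2.43 ± 0.53 to -1.13 and from -2.32 ± 0.47 to -1.54 without sham replicate 4.

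Genes with high levels also fell. Abca9, a transporter of the ABC A subfamily (ENSMUSG00000041797, chromosome 11, 110100749 to 110168196, minus strand), stood at 1823, 1352 and 2018 CPM in sham and 917, 1021 and 724 at 7 days. Abca9 changed by -0.96 ± 0.18 (edgeR adjusted p = 0.00502), with each 7-day library below each sham library. Dock10, an activator of small GTPases, stood at 3401, 2516 and 3449.8 CPM in sham and 2207, 2372 and 1688 at 7 days. Dock10 changed by -0.58 ± 0.17 (edgeR adjusted p = 0.0416), lost without sham replicate 2 (-0.52, 0.0531), sham replicate 4 (-0.51, 0.0788), 7-day replicate 1 (-0.61, 0.0831) or 7-day replicate 4 (-0.48, 0.111). Csmd3 stood at 1923, 1168 and 1831 CPM in sham and 1057, 901 and 459.8 at 7 days. Csmd3 changed by -1.03 ± 0.26 (edgeR adjusted p = 0.0231), lost without 7-day replicate 4 (-0.78, 0.0512). BC018473, an antisense noncoding RNA, had 4, 72 and 238 counts in the sham libraries and 1, 0 and 0 at 7 days, too uneven within sham for a ratio. Il6, the cytokine interleukin 6 (ENSMUSG00000025746, chromosome 5, 30013114 to 30019981, plus strand), was among the few inflammatory genes that fell: it stood at 15.6, 9.83 and 12.3 CPM in sham and 3.14, 2.99 and 1.74 at 7 days. Il6 changed by -2.28 ± 0.39 (edgeR adjusted p = 0.00318), with no overlap and a call under each of the 14 other settings in which it was tested.

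Few homeostatic genes were called at 7 days, and most of the damage-associated program was higher. Of 24 homeostatic genes 1 was called higher, the transcription factor Irf8, and 0 lower, with a list median of -0.14. The share higher, 4.2%, was near the 4.61% of all tested genes. With 1 of the 6 libraries left out at a time, 0 to 6 homeostatic genes were called lower. P2ry12, the purinergic receptor that steers microglial processes, stood at 663, 328 and 639 CPM in sham and 335, 339 and 131 at 7 days. The log2 fold change of P2ry12 was -1.02 ± 0.33 (edgeR adjusted p = 0.0637). Its groups overlapped, since sham replicate 3 lay just below 7-day replicates 1 and 3. The main edgeR fit did not call P2ry12, but DESeq2 did (adjusted p = 0.0252). So did edgeR without sham replicate 3 (-1.31, 0.0238) and edgeR with no filter on low counts (-0.98, 2.86e-05). P2ry13 stood at 241, 211 and 458 CPM in sham and 194, 161 and 100.4 at 7 days. The log2 fold change of P2ry13 was -1.0 ± 0.31 (edgeR adjusted p = 0.0532). It was called lower in 6 of the 15 alternatives, among them DESeq2 (adjusted p = 0.0186) and edgeR without sham replicate 2 (-1.15, 0.027) or 3 (-1.24, 0.0283), and it stood at -0.58 (0.197) without sham replicate 4. Tmem119, the microglial surface marker, stood at 133, 233 and 172 CPM in sham and 170.3, 87.5 and 145 at 7 days. The log2 fold change of Tmem119 was -0.42 ± 0.23 (edgeR adjusted p = 0.271). Irf8 itself stood at 194, 239.6 and 121 CPM in sham and 346, 313 and 378 at 7 days. Irf8 changed by 0.9 ± 0.2 (edgeR adjusted p = 0.0138), lost without 7-day replicate 4 (0.8, 0.0549).

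Of 24 damage-associated genes 19 were higher and 0 lower, against the 4.61% higher among all genes, with a list median of 1.93 beside 0.01 for all. The count was 18 to 20 with 1 library left out. The list summed to 1498, 1765 and 1451 CPM in sham and 3570.0, 5275 and 5654 CPM at 7 days, with every 7-day library far above every sham library. Beyond Gpnmb and Spp1, Cst7, an inhibitor of lysosomal cysteine proteases (ENSMUSG00000068129), stood at 1.36, 2.51 and 1.4 CPM in sham and 10.1, 15.5 and 13.5 at 7 days (2.89 ± 0.39, edgeR adjusted p = 0.000563). Itgax, the integrin chain CD11c (ENSMUSG00000030789, chromosome 7, 128129547 to 128150657, plus strand), stood at 21 ± 6.62 CPM in sham and 114 ± 17.1 CPM at 7 days (SD, n = 3), without overlap (2.42 ± 0.25, edgeR adjusted p = 8.2e-05). Clec7a, the beta-glucan receptor Dectin-1 (ENSMUSG00000079293), stood at 16.5, 6.63 and 16.2 CPM in sham and 44.6, 92.1 and 35.7 at 7 days (2.12 ± 0.41, edgeR adjusted p = 0.0065). The tetraspanins Cd9 and Cd63 stood 1.51 ± 0.18 (edgeR adjusted p = 0.000236) and 2.16 ± 0.35 (edgeR adjusted p = 0.00224) from sham. The receptor pair that signals for this state gave no call: Trem2 stood at 294, 336 and 128 CPM in sham and 359, 394 and 416 at 7 days (0.62 ± 0.28, edgeR adjusted p = 0.17) and its adaptor Tyrobp at 141, 54.2 and 23 CPM in sham and 138, 139.7 and 119 at 7 days (0.84 ± 0.43, edgeR adjusted p = 0.22). Tyrobp was called with the replicate block (1.49, 0.0104) and without sham replicate 2 (1.76, 0.00338), and stood at 0.42 (0.469) without sham replicate 4. With no filter on low counts both genes were called (Trem2 0.0126, Tyrobp 0.00333). Cd68, Ccl6 and Ank were the other 3 members not called, and Cd68 was called without sham replicate 4 (1.02, 0.00368) or with no filter (0.73, 0.00974).

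**Figure D3:**
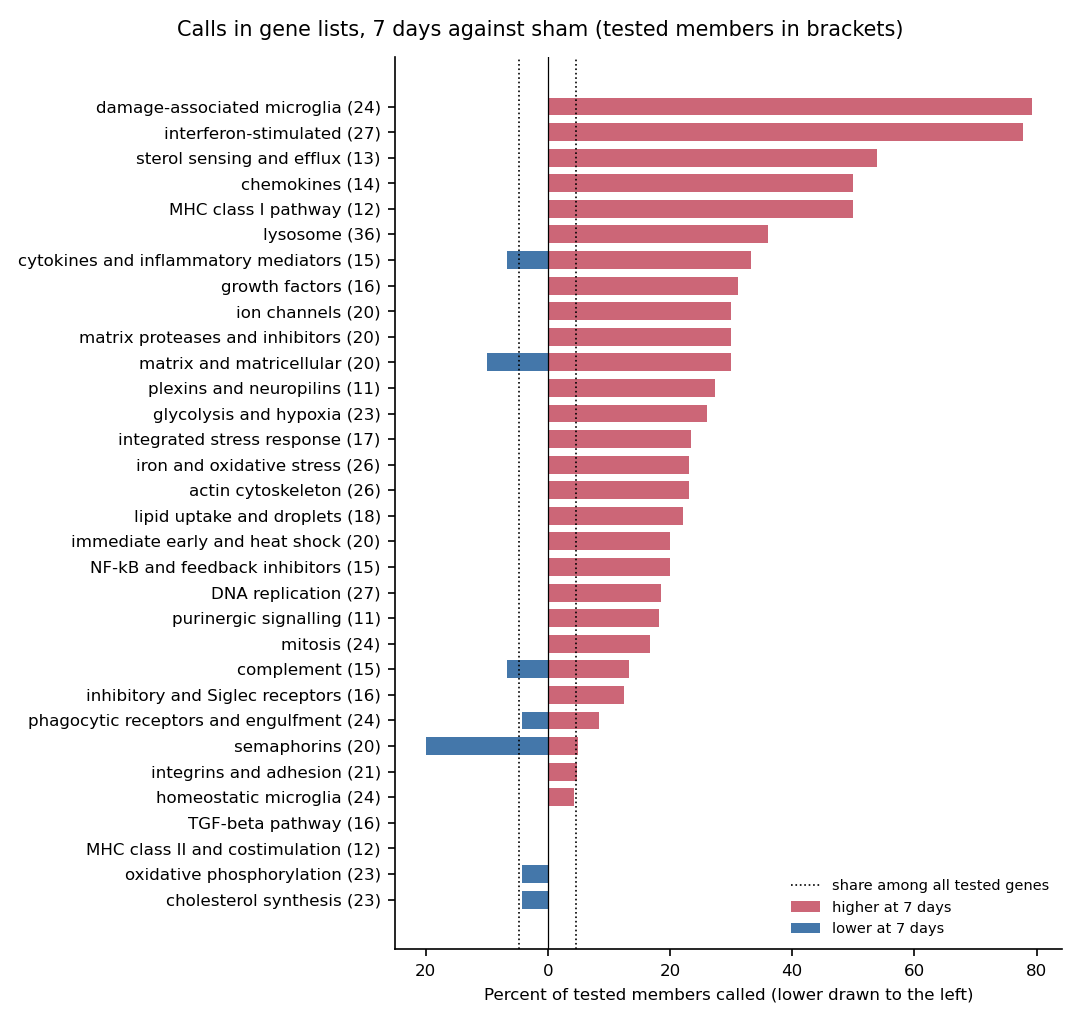
Percent of the tested members of each gene list, cell type markers not shown, called higher or lower at 7 days against sham, with dotted lines at the share among all tested genes (4.61% higher, 4.67% lower). Damage-associated, interferon-stimulated and sterol-export lists reach furthest on the higher side, and semaphorins on the lower side. Semaphorins called lower numbered 4 of 20, and 2 without sham replicate 4.

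Several genes that export cholesterol rose, and a few that bind and store lipid. Of 13 sterol genes 7 were higher and 0 lower (6 to 9 with 1 library left out), with a list median of 1.03. Abca1, which loads cholesterol onto apolipoproteins (ENSMUSG00000015243, chromosome 4, 53030787 to 53159895, minus strand), stood at 284, 283 and 296 CPM in sham and 838, 1017 and 1293 at 7 days. Abca1 changed by 1.87 ± 0.17 (edgeR adjusted p = 3.8e-05). Sham libraries were almost equal for this gene, and all 3 injured libraries were far above them. Abcg1, its partner for high-density lipoprotein (ENSMUSG00000024030, chromosome 17, 31057675 to 31117988, plus strand), stood at 20.3, 14.4 and 16 CPM in sham and 58, 78 and 116 at 7 days (2.31 ± 0.24, edgeR adjusted p = 8.2e-05), and the carrier Apoe (ENSMUSG00000002985, chromosome 7, 19696109 to 19699188, minus strand) at 38.3, 43.7 and 39.8 CPM in sham and 157, 272 and 332 at 7 days (2.65 ± 0.29, edgeR adjusted p = 0.000133). For all 3 transport genes 7-day replicate 1 was the lowest and replicate 4 the highest injured library. Ch25h, which makes the oxysterol 25-hydroxycholesterol (ENSMUSG00000050370, chromosome 19, 34473778 to 34475164, minus strand), stood at 0.757, 0.914 and 0.280 CPM in sham and 10.9, 15.8 and 20.6 at 7 days (4.5 ± 0.41, edgeR adjusted p = 3.8e-05), from a level close to 0 in sham. Mylip, which marks the LDL receptor for degradation, changed by 0.76 ± 0.16 (edgeR adjusted p = 0.00949), and Soat1, which esterifies cholesterol for storage, by 1.03 ± 0.2 (edgeR adjusted p = 0.00608). The oxysterol-sensing receptors Nr1h3 (1.14 ± 0.5, edgeR adjusted p = 0.162) and Nr1h2 (0.9 ± 0.29, edgeR adjusted p = 0.0632) gave no call.

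Of 18 lipid uptake and droplet genes 4 were higher and 0 lower. Lpl, the lipase that frees fatty acids from lipoproteins (ENSMUSG00000015568, chromosome 8, 68880491 to 68907448, plus strand), stood at 12.6, 22.2 and 19.9 CPM in sham and 115, 194 and 134 at 7 days (3.03 ± 0.29, edgeR adjusted p = 3.92e-05). Fabp5, a carrier of fatty acids within the cell (ENSMUSG00000027533, chromosome 3, 10012548 to 10016607, plus strand), stood at 10.9, 7.54 and 0.560 CPM in sham and 52, 66.6 and 73.3 at 7 days (3.25 ± 0.46, edgeR adjusted p = 0.000889), with sham replicate 4 the lowest library. Plin2, which coats lipid droplets (ENSMUSG00000028494, chromosome 4, 86648386 to 86670060, minus strand), stood at 36.5, 12.1 and 14.6 CPM in sham and 49.4, 97.4 and 104 at 7 days (1.96 ± 0.36, edgeR adjusted p = 0.00522). The scavenger receptor Msr1 was the fourth, at 1.03 ± 0.27 (edgeR adjusted p = 0.0275), and was lost without sham replicate 2 (0.89, 0.0515), sham replicate 3 (0.87, 0.0829), 7-day replicate 3 (0.81, 0.0898) or 7-day replicate 4 (1.02, 0.0717). Few genes of cholesterol synthesis were called: of 23 genes 0 were higher and 1 lower (4.3%, near the 4.67% of all tested genes), with a list median of -0.42. That 1 gene, Lss, which closes the sterol ring system, changed by -0.81 ± 0.24 (edgeR adjusted p = 0.0466) and was lost without sham replicate 3 (-0.9, 0.0503), sham replicate 4 (-0.72, 0.0871), 7-day replicate 3 (-0.62, 0.119) or 7-day replicate 4 (-0.81, 0.109). From 0 to 7 synthesis genes were called lower with 1 library left out, the highest count without sham replicate 2.

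Lysosomal genes rose in part. Of 36 tested 13 were higher and 0 lower, with a list median of 0.59. The count was 7 to 16 with 1 library left out, lowest without 7-day replicate 4. Ctsd, the aspartic protease cathepsin D (ENSMUSG00000007891, chromosome 7, 142375911 to 142388038, minus strand), stood at 170.3, 124 and 135 CPM in sham and 332, 348 and 375 at 7 days (1.3 ± 0.23, edgeR adjusted p = 0.00475). Ctsb, a cysteine protease (ENSMUSG00000021939, chromosome 14, 63122462 to 63145923, plus strand), stood at 105, 135 and 131 CPM in sham and 253, 314 and 351 at 7 days (1.31 ± 0.22, edgeR adjusted p = 0.00245), and overlaps Fdft1 on the opposite strand. Grn, the precursor of the lysosomal granulins (ENSMUSG00000034708, chromosome 11, 102430315 to 102437048, plus strand), stood at 168, 164 and 90.1 CPM in sham and 368, 345 and 371 at 7 days (1.36 ± 0.23, edgeR adjusted p = 0.00318). Psap, the precursor of the saposins that help break down sphingolipids, changed by 1.36 ± 0.28 (edgeR adjusted p = 0.00879). Fnip2, a partner of the nutrient sensor folliculin (ENSMUSG00000061175, chromosome 3, 79455974 to 79567796, minus strand), stood at 129, 158 and 180.3 CPM in sham and 311, 347 and 390.0 at 7 days (1.17 ± 0.15, edgeR adjusted p = 0.000556). All these members were called when any 1 library was left out. The membrane proteins Lamp1 (0.26 ± 0.16, edgeR adjusted p = 0.323) and Lamp2 (0.24 ± 0.22, edgeR adjusted p = 0.51) were not called, nor was the transcription factor Tfeb (0.5 ± 0.23, edgeR adjusted p = 0.175).

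Transcription factors of the Tfeb family bind an E-box, and its 8-letter palindrome TCACGTGA was searched in the RefSeq promoter windows of GRCm38.p6, which run from 250 bases before to 50 after each annotated start. The palindrome reads the same on both strands. It was present in 4 of the 11 called lysosomal genes that the promoter table holds (36.4%), in 1 of 16 lysosomal genes not called (6.25%) and in 1.12% of all 27025 genes in the table. The 4 windows around the match, which lie before the start, are shown because they carry this share, with the match in capitals.
Ctsa, chr2:164833720-164833772, plus strand: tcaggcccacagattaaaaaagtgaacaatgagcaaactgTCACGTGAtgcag
Ctsd, chr7:142387879-142387966, minus strand: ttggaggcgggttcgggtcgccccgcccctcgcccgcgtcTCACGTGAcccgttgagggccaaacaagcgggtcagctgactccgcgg
Mcoln1, chr8:3500433-3500518, plus strand: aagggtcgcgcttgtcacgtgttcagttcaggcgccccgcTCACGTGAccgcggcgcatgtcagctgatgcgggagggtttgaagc
Atp6v1a, chr16:44139344-44139431, minus strand: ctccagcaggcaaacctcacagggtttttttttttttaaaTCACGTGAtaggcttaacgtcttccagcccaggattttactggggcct
A match describes these letters only. Of the 4, Ctsd changed most, as given above. Ctsa, a serine carboxypeptidase, stood at 209, 254 and 227 CPM in sham and 369, 264 and 425 at 7 days (0.62 ± 0.17, edgeR adjusted p = 0.0395), and its call was lost without sham replicate 2 (0.55, 0.0632), sham replicate 4 (0.6, 0.0636), 7-day replicate 1 (0.59, 0.109) or 7-day replicate 4 (0.43, 0.173). The calcium channel Mcoln1 stood at 188, 161 and 221 CPM in sham and 277, 321 and 326 at 7 days (0.7 ± 0.15, edgeR adjusted p = 0.0134), lost without 7-day replicate 4 (0.62, 0.0555). The proton pump subunit Atp6v1a stood at 80.4, 96.9 and 114 CPM in sham and 123, 145 and 164 at 7 days (0.57 ± 0.17, edgeR adjusted p = 0.0441), lost without sham replicate 2 (0.44, 0.0832), sham replicate 3 (0.54, 0.087), 7-day replicate 3 (0.56, 0.0745) or 7-day replicate 4 (0.43, 0.173).

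Most interferon-stimulated genes were higher at 7 days. Of 27 tested 21 were higher and 0 lower, with a list median of 1.04, and the list summed to 1092, 1204 and 1019 CPM in sham and 2274, 2016 and 2755 CPM at 7 days. The count was 11 to 21 with 1 library left out, lowest without 7-day replicate 4. Ifit3, an antiviral RNA-binding family member (ENSMUSG00000074896, chromosome 19, 34583531 to 34588731, plus strand), stood at 14.2, 7.77 and 5.6 CPM in sham and 58.7, 40.5 and 48.1 at 7 days (2.37 ± 0.31, edgeR adjusted p = 0.000416). Irf7, the factor that amplifies type I interferon production (ENSMUSG00000025498, chromosome 7, 141262706 to 141266481, minus strand), stood at 9.23, 9.37 and 5.04 CPM in sham and 40.0, 29.1 and 42.3 at 7 days (2.21 ± 0.25, edgeR adjusted p = 0.000179), and overlaps Phrf1 on the opposite strand. Zbp1, a sensor of Z-form nucleic acid (ENSMUSG00000027514, chromosome 2, 173206612 to 173218923, minus strand), stood at 16, 6.4 and 14.6 CPM in sham and 82.1, 58.5 and 53 at 7 days (2.37 ± 0.3, edgeR adjusted p = 0.000328). Rsad2, the antiviral enzyme viperin (ENSMUSG00000020641), stood at 2.72, 2.29 and 1.96 CPM in sham and 8.8, 18.5 and 14.6 at 7 days (2.55 ± 0.37, edgeR adjusted p = 0.00106), and Oas3, which makes the oligoadenylate that activates RNase L (ENSMUSG00000032661), at 1.67, 2.29 and 1.68 CPM in sham and 9.85, 9.86 and 6.82 at 7 days (2.22 ± 0.43, edgeR adjusted p = 0.00682). Ifih1, the cytosolic RNA sensor MDA5, changed by 0.77 ± 0.15 (edgeR adjusted p = 0.00707). In each of these genes all 3 injured libraries lay above all 3 sham libraries. Isg15 (0.84 ± 0.79, edgeR adjusted p = 0.52) and Ifit1 (0.61 ± 0.42, edgeR adjusted p = 0.372), usually counted among the core of the program, were not called, nor were Irf9, Ifi44, Bst2 and Cmpk2.

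The core of the interferon response element, GAAANNGAA, was searched on both strands in the same windows. It was present in 7 of the 12 called interferon-stimulated genes in the promoter table (58.3%), in 4 of 6 not called (66.7%) and in 9.76% of all genes in the table. The share was no higher among the called members than among the others. The part of the window up to the start that holds the matches is shown for 6 called members, with each match in capitals.
Ifit3, chr19:34583334-34583475, plus strand: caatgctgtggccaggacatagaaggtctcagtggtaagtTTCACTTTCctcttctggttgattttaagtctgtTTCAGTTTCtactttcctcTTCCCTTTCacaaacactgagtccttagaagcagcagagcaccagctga
Rsad2, chr12:26456523-26456611, minus strand: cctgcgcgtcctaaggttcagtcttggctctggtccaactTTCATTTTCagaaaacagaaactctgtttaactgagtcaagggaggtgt
Oas1a, chr5:120907526-120907585, minus strand: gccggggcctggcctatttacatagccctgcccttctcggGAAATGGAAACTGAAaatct
Oas3, chr5:120777680-120777774, minus strand: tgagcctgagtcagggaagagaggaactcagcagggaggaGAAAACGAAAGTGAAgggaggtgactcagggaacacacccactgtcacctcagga
Stat2, chr10:128270248-128270325, plus strand: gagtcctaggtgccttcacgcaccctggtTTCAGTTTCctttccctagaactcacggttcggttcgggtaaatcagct
Ifih1, chr2:62646319-62646407, minus strand: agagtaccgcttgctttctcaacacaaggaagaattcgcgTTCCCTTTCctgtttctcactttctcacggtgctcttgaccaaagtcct
Ifit3 holds 3 matches, Oas1a and Oas3 hold 2 each and the other 3 genes 1 each. Oas1a stood at 11.2, 17.1 and 26 CPM in sham and 35, 28.5 and 76.6 at 7 days (1.39 ± 0.38, edgeR adjusted p = 0.0336), lost without sham replicate 2 (1.12, 0.066), sham replicate 3 (1.34, 0.0769) or 7-day replicate 4 (0.79, 0.19).

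Some class I histocompatibility genes were called, and no class II gene was. Of 12 class I pathway genes 6 were higher and 0 lower (4 to 8 with 1 library left out), and the list summed to 674, 612 and 414 CPM in sham and 1066, 1341 and 1449.8 CPM at 7 days. Nlrc5, the transactivator of class I genes (ENSMUSG00000074151, chromosome 8, 94434356 to 94527272, plus strand), stood at 53.1, 44.8 and 27.2 CPM in sham and 139.7, 165 and 184 at 7 days (1.96 ± 0.23, edgeR adjusted p = 0.000227). Tap1, a subunit of the peptide transporter (ENSMUSG00000037321, chromosome 17, 34187553 to 34197225, plus strand), stood at 61.3, 62.2 and 45.6 CPM in sham and 128, 110.4 and 133 at 7 days (1.13 ± 0.18, edgeR adjusted p = 0.0021), and overlaps Psmb9 on the opposite strand. H2-D1, a classical class I heavy chain, stood at 66.1, 59 and 16.8 CPM in sham and 129, 156 and 169 at 7 days (1.67 ± 0.35, edgeR adjusted p = 0.0109), with sham replicate 4 the lowest library, and reads of near-identical class I genes could be shared. B2m, the common light chain, was not called (0.29 ± 0.3, edgeR adjusted p = 0.564). Of 12 class II and costimulation genes edgeR called 0 (2 higher at an unadjusted p under 0.05, and 2 by DESeq2). The log2 fold change of Cd74, the invariant chain, was -0.44 ± 0.31 (edgeR adjusted p = 0.384). That of H2-Aa was -0.02 ± 0.25 (edgeR adjusted p = 0.963) and that of the costimulator Cd86 0.22 ± 0.17 (edgeR adjusted p = 0.445). No test of the difference between the lists was made.

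Some chemokine genes and some cytokine genes rose. Of 14 chemokine and receptor genes 7 were higher and 0 lower (6 to 7 with 1 library left out). Cxcl10, which draws Cxcr3-bearing lymphocytes (ENSMUSG00000034855, chromosome 5, 92346638 to 92348889, minus strand), stood at 0.757, 1.14 and 3.08 CPM in sham and 15.1, 13.9 and 20.9 at 7 days (3.44 ± 0.4, edgeR adjusted p = 0.000217), and overlaps Art3 on the opposite strand. Ccl3, a ligand of Ccr1 (ENSMUSG00000000982, chromosome 11, 83647844 to 83649355, minus strand), stood at 10.9, 11.4 and 12.3 CPM in sham and 33.5, 48.8 and 55.4 at 7 days (2.0 ± 0.23, edgeR adjusted p = 0.000183), and its neighbour Ccl4 changed by 1.86 ± 0.37 (edgeR adjusted p = 0.00734). Cxcl16, a transmembrane chemokine (ENSMUSG00000018920, chromosome 11, 70453983 to 70459984, minus strand), stood at 24.8, 36.8 and 21 CPM in sham and 73.7, 91.2 and 95.7 at 7 days (1.66 ± 0.24, edgeR adjusted p = 0.000969), and the monocyte attractant Ccl12 changed by 1.69 ± 0.33 (edgeR adjusted p = 0.00737). Of the receptors Cxcr4, which binds Cxcl12 (ENSMUSG00000045382, chromosome 1, 128588199 to 128592293, minus strand), stood at 1.06, 1.37 and 1.68 CPM in sham and 7.75, 13.4 and 17.9 at 7 days (3.28 ± 0.37, edgeR adjusted p = 0.000151), while Ccr2 (0.38 ± 0.37, edgeR adjusted p = 0.542) was not called.

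Of 15 cytokine and receptor genes 5 were higher and 1, Il6, lower (2 to 5 higher with 1 library left out). Tnf (ENSMUSG00000024401, chromosome 17, 35199381 to 35202007, minus strand) stood at 2.42, 3.66 and 1.68 CPM in sham and 14.2, 8.45 and 12.8 at 7 days (2.17 ± 0.33, edgeR adjusted p = 0.00157), with no overlap. Il1rn, the natural antagonist of the interleukin 1 receptor (ENSMUSG00000026981, chromosome 2, 24336853 to 24351494, plus strand), had 0 counts in all 3 sham libraries and 21, 17 and 11 counts at 7 days (edgeR adjusted p = 0.00145). Il1b itself stood at 8.48, 10.7 and 10.4 CPM in sham and 23.5, 14.4 and 24.1 at 7 days (1.07 ± 0.33, edgeR adjusted p = 0.0551) and was not called. DESeq2 called it (adjusted p = 0.0296), as did edgeR without 7-day replicate 3 (0.043) or with no filter on low counts (0.0188). Among NF-kB genes 3 of 15 were higher. They were Bcl3, a nuclear IkB protein, at 0.908, 1.14 and 0.560 CPM in sham and 5.45, 7.04 and 7.89 at 7 days (2.91 ± 0.41, edgeR adjusted p = 0.000865), Nfkbiz (0.96 ± 0.18, edgeR adjusted p = 0.00547) and the feedback inhibitor Tnfaip3 (0.94 ± 0.24, edgeR adjusted p = 0.0235), the last lost without 7-day replicate 3 (0.91, 0.0554) or 7-day replicate 4 (0.61, 0.122). Of 15 complement genes 2 were higher, C3ar1, the receptor for C3a, at 102, 96.9 and 112 CPM in sham and 181, 245 and 191 at 7 days (0.99 ± 0.16, edgeR adjusted p = 0.00224), and Itgax. The complement regulator Cd55 was lower (-2.5 ± 0.64, edgeR adjusted p = 0.0249), lost without sham replicate 2 (-1.97, 0.051), 7-day replicate 1 (-2.49, 0.0855) or 7-day replicate 4 (-2.18, 0.0898), and its groups overlapped.

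Some secreted growth factors rose. Of 16 tested 5 were higher and 0 lower (4 to 6 with 1 library left out), and the list summed to 421, 531 and 424 CPM in sham and 1050.1, 1033 and 1198 CPM at 7 days. Igf1, insulin-like growth factor 1 (ENSMUSG00000020053, chromosome 10, 87858265 to 87937042, plus strand), stood at 15.4, 15.8 and 60.5 CPM in sham and 146, 233 and 188 at 7 days (2.66 ± 0.4, edgeR adjusted p = 0.00138), with sham replicate 4 well above the other 2 sham libraries. Csf1, the ligand of the microglial survival receptor Csf1r (ENSMUSG00000014599, chromosome 3, 107741048 to 107760469, minus strand), stood at 20.0, 38.6 and 63 CPM in sham and 187, 162 and 236 at 7 days (2.28 ± 0.3, edgeR adjusted p = 0.000476). Its receptor Csf1r stood at 1383, 1285 and 874 CPM in sham and 1355, 1198 and 1423 at 7 days (0.17 ± 0.17, edgeR adjusted p = 0.57) and was not called. Pdgfa, which acts on oligodendrocyte precursors (ENSMUSG00000025856, chromosome 5, 138976014 to 138997370, minus strand), stood at 17.4, 34.1 and 32.8 CPM in sham and 85.5, 79.8 and 78 at 7 days (1.54 ± 0.24, edgeR adjusted p = 0.00168), with close values in the 3 injured libraries. Of 16 TGF-beta pathway genes edgeR called 0 (3 higher and 3 lower at an unadjusted p under 0.05, 1 each way by DESeq2): Tgfbr1 stood at 2518, 1617 and 2556 CPM in sham and 1559, 1839.8 and 1063 at 7 days (-0.58 ± 0.21, edgeR adjusted p = 0.087). With 1 library left out, 0 to 3 of them were called higher and 0 to 3 lower.

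Some matrix genes rose. Of 20 tested 6 were higher and 2 lower. With 1 library left out 0 to 4 were lower, with 0 without sham replicate 4, 7-day replicate 1 or 7-day replicate 3. Fn1, fibronectin (ENSMUSG00000026193, chromosome 1, 71585520 to 71653200, minus strand), stood at 19.7, 17.1 and 72.2 CPM in sham and 118, 283 and 383 at 7 days (2.87 ± 0.49, edgeR adjusted p = 0.00299). It is also a marker of monocyte-derived macrophages. Their 15 markers, of which 11 had enough counts to test, summed to 158, 173 and 393 CPM in sham and 319, 639 and 787 CPM at 7 days. Fn1 is itself part of this sum, and of the 11 tested only Fn1 and Lyz2 were called higher. In sham and at 7 days the sum averaged 241 and 582 CPM, Fn1 36.3 and 261 CPM, and Lyz2 46.3 and 143.5 CPM. The part of monocyte-derived macrophages in the Fn1 change was not tested. Lgals3, the sugar-binding galectin-3 (ENSMUSG00000050335, chromosome 14, 47367751 to 47386160, plus strand), stood at 3.94, 1.14 and 1.68 CPM in sham and 12.8, 29.2 and 20.2 at 7 days (3.11 ± 0.41, edgeR adjusted p = 0.000563). Cspg4, the NG2 proteoglycan (ENSMUSG00000032911, chromosome 9, 56865033 to 56899870, plus strand), stood at 2.57, 5.26 and 2.52 CPM in sham and 29.1, 36.5 and 55.5 at 7 days (3.56 ± 0.32, edgeR adjusted p = 3.8e-05). NG2 is best known from oligodendrocyte precursors, of whose other markers none was called higher: of 12 tested Cspg4 was the only one higher and 3 were lower. Without sham replicate 4, 1 of the 12 was lower. Nid1, nidogen of basement membranes, stood at 12.4, 12.8 and 74.2 CPM in sham and 4.4, 5.46 and 8.96 at 7 days (-2.35 ± 0.56, edgeR adjusted p = 0.0194), lost without sham replicate 4 (-0.98, 0.0574), 7-day replicate 1 (-2.15, 0.0833) or 7-day replicate 3 (-2.25, 0.06). Of 20 matrix protease genes 6 were higher and 0 lower (4 to 7 with 1 library left out).

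A ligand and its receptor in the plasminogen system rose together. Plau, urokinase (ENSMUSG00000021822, chromosome 14, 20836660 to 20843385, plus strand), stood at 17.4, 19.7 and 16.5 CPM in sham and 51.3, 51.6 and 68.5 at 7 days (1.68 ± 0.2, edgeR adjusted p = 0.000259), and its receptor Plaur (ENSMUSG00000046223, chromosome 7, 24462484 to 24475968, plus strand) at 4.24, 5.26 and 6.72 CPM in sham and 17, 19.5 and 32.5 at 7 days (2.12 ± 0.3, edgeR adjusted p = 0.000969). Adam8, a membrane metalloprotease of leukocytes (ENSMUSG00000025473, chromosome 7, 139978932 to 139992562, minus strand), stood at 17.1, 5.26 and 6.16 CPM in sham and 40.2, 66.2 and 87.9 at 7 days (2.71 ± 0.37, edgeR adjusted p = 0.000593), with sham replicate 2 above the other 2 sham libraries. Adam9 changed by 0.86 ± 0.19 (edgeR adjusted p = 0.0143). Mmp9, a gelatinase of neutrophils and macrophages, stood at 1.97, 2.74 and 1.4 CPM in sham and 1.89, 1.58 and 2.14 at 7 days (-0.13 ± 0.59, edgeR adjusted p = 0.915).

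Genes of adhesion, cytoskeleton and guidance gave a mixed picture. Of 21 integrin and adhesion genes 1 was higher (4.8%), near the 4.61% of all tested genes. Of 26 actin genes 6 were higher (23.1%, and 3 to 10 genes with 1 library left out). Iqgap1, a scaffold between small GTPases and actin (ENSMUSG00000030536, chromosome 7, 80711583 to 80825974, minus strand), stood at 58.4, 59.7 and 61 CPM in sham and 135, 217 and 248 at 7 days (1.74 ± 0.2, edgeR adjusted p = 0.000179), and the sham libraries were almost equal. Myo1e, a membrane-linked myosin (ENSMUSG00000032220, chromosome 9, 70207350 to 70399766, plus strand), stood at 35, 59.4 and 63.3 CPM in sham and 122, 131 and 237 at 7 days (1.64 ± 0.26, edgeR adjusted p = 0.00208). Myo5a, a vesicle-carrying myosin, changed by 0.73 ± 0.16 (edgeR adjusted p = 0.0129). Among phagocytic receptors 2 of 24 were higher (8.3%) and 1 lower (4.2%), beside 4.61% and 4.67% of all tested genes. The lower one was Megf10 (-1.82 ± 0.45, edgeR adjusted p = 0.0223), lost without sham replicate 4 (-1.26, 0.0749), 7-day replicate 1 (-1.57, 0.091) or 7-day replicate 3 (-1.72, 0.0621). The higher ones were Cd300lf and Axl, a receptor for dying cells (ENSMUSG00000002602, chromosome 7, 25757273 to 25788705, minus strand) at 56.5, 123 and 143 CPM in sham and 289, 326 and 450.3 at 7 days (1.73 ± 0.29, edgeR adjusted p = 0.00285). Of 16 inhibitory and Siglec receptors Lilrb4a and Cd22 were higher. Cd22, a sialic-acid receptor of B cells and aged microglia (ENSMUSG00000030577, chromosome 7, 30865402 to 30880342, minus strand), stood at 4.54, 9.83 and 5.04 CPM in sham and 32.7, 28.5 and 54.3 at 7 days (2.59 ± 0.31, edgeR adjusted p = 0.000259), while other B cell markers fell, as given with the cell types below.

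The receptor named in the title of the series was not called at 7 days. Plxnb2, which encodes Plexin-B2, a receptor for class 4 semaphorins (ENSMUSG00000036606, chromosome 15, 89155549 to 89180788, minus strand), stood at 318, 343 and 259.5 CPM in sham and 395, 275 and 392 at 7 days. The groups overlapped, since 7-day replicate 3 lay between sham replicates 2 and 4. The estimate for Plxnb2 was 0.21 ± 0.16 (edgeR adjusted p = 0.445). Of 11 plexins and neuropilins 3 were higher (1 to 3 with 1 library left out). Nrp1, a co-receptor for class 3 semaphorins and VEGF (ENSMUSG00000025810, chromosome 8, 128358604 to 128503363, plus strand), stood at 102 ± 1.12 CPM in sham and 187 ± 26.7 CPM at 7 days (SD, n = 3), with nearly equal sham libraries and no overlap (0.88 ± 0.15, edgeR adjusted p = 0.00268). Nrp2 changed by 0.75 ± 0.18 (edgeR adjusted p = 0.0193), lost without sham replicate 3 (0.6, 0.0647) or 7-day replicate 4 (0.59, 0.0922), and Plxnc1 by 0.94 ± 0.22 (edgeR adjusted p = 0.017), lost without 7-day replicate 4 (0.68, 0.0861). Of 20 semaphorins 4 were lower (20.0%, beside 4.67% of all tested genes), and 1 to 4 with 1 library left out. Without sham replicate 4 the count was 2. The share higher, 1 of 20 (5.0%), was near the 4.61% of all tested genes. The higher one was Sema4d, a class 4 semaphorin, at 169.8, 186 and 140.3 CPM in sham and 254, 203 and 297 at 7 days (0.6 ± 0.17, edgeR adjusted p = 0.0361), lost without sham replicate 4 (0.49, 0.0851), 7-day replicate 1 (0.6, 0.0934) or 7-day replicate 4 (0.43, 0.154). Among the lower ones, Sema6a stood at 21.6, 26.1 and 73.9 CPM in sham and 5.24, 7.57 and 14.8 at 7 days (-2.09 ± 0.46, edgeR adjusted p = 0.0125), lost without 7-day replicate 1 (-1.81, 0.057) and at -1.34 (0.0317) without sham replicate 4.

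Some cell division genes were higher at 7 days. Of 24 mitosis genes 4 were higher than sham and 0 lower, and of 27 replication genes 5 and 0. The counts were 3 to 7 and 1 to 6 with 1 library left out. Cenpe, the kinetochore motor (ENSMUSG00000045328, chromosome 3, 135212537 to 135273611, plus strand), stood at 26, 20.8 and 33.6 CPM in sham and 54, 47.5 and 53.9 at 7 days (0.96 ± 0.19, edgeR adjusted p = 0.00682). Incenp, a subunit of the chromosomal passenger complex (ENSMUSG00000024660, chromosome 19, 9872296 to 9899551, minus strand), stood at 14.1, 18.3 and 6.72 CPM in sham and 41.7, 28 and 38.8 at 7 days (1.46 ± 0.28, edgeR adjusted p = 0.00671). Cdk1, the mitotic kinase, stood at 1.36, 2.06 and 0.280 CPM in sham and 3.77, 6.34 and 5.75 at 7 days (2.04 ± 0.47, edgeR adjusted p = 0.0157), a low level in every library. Against 3 days all 24 of 24 mitosis genes were lower at 7 days, and against 14 days edgeR called 0 (1 higher at an unadjusted p under 0.05, and 1 by DESeq2).

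Sugar breakdown, iron handling and stress genes rose in part, and few respiration genes were called. Of 23 glycolysis and hypoxia genes 6 were higher and 0 lower (3 to 7 with 1 library left out). Pfkl, a subunit of phosphofructokinase (ENSMUSG00000020277, chromosome 10, 77986947 to 78010083, minus strand), stood at 17.4, 20.6 and 10.9 CPM in sham and 56.8, 40.2 and 58.4 at 7 days (1.66 ± 0.24, edgeR adjusted p = 0.000889). Hk2, a hexokinase, stood at 182, 145 and 88.2 CPM in sham and 264, 268 and 279.9 at 7 days (0.97 ± 0.21, edgeR adjusted p = 0.0109), and Pfkfb3, which makes an activator of phosphofructokinase, changed by 0.8 ± 0.15 (edgeR adjusted p = 0.00547). Of 23 nuclear genes of oxidative phosphorylation 0 were higher and 1 lower (4.3%, near the 4.67% of all tested genes). Of 26 iron and oxidative stress genes 6 were higher (2 to 9 with 1 library left out). Slc11a2, an importer of ferrous iron (ENSMUSG00000023030, chromosome 15, 100387898 to 100425072, minus strand), stood at 55.3, 66.8 and 40.0 CPM in sham and 116, 101 and 165 at 7 days (1.24 ± 0.21, edgeR adjusted p = 0.00319), and Ftl1, the ferritin light chain, at 36.8, 41.6 and 20.2 CPM in sham and 62.8, 87.5 and 152 at 7 days (1.61 ± 0.31, edgeR adjusted p = 0.00677). Ftl1 has near-identical pseudogenes that could share its reads.

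Of 17 integrated stress response genes 4 were higher, and 0 to 5 with 1 library left out. Atf3, a stress-induced transcription factor (ENSMUSG00000026628, chromosome 1, 191170296 to 191218039, minus strand), stood at 7.27, 6.86 and 5.32 CPM in sham and 26.4, 36.1 and 33.7 at 7 days (2.29 ± 0.23, edgeR adjusted p = 6.19e-05). Among 20 immediate early and heat shock genes 4 were higher, with Egr1 (ENSMUSG00000038418, chromosome 18, 34859823 to 34864984, plus strand) at 23.8, 16.7 and 24.9 CPM in sham and 60.5, 82.6 and 56.7 at 7 days (1.61 ± 0.23, edgeR adjusted p = 0.000865) and Egr2 at 3.94, 4.34 and 9.24 CPM in sham and 31.8, 14.6 and 19.9 at 7 days (1.95 ± 0.36, edgeR adjusted p = 0.00546). Ion channels gave 6 higher and 0 lower of 20 (4 to 5 with 1 library left out). Trpc4, a calcium-permeable cation channel (ENSMUSG00000027748, chromosome 3, 54156035 to 54318471, plus strand), stood at 0.454, 2.29 and 0.840 CPM in sham and 8.17, 27.5 and 11.2 at 7 days (3.76 ± 0.54, edgeR adjusted p = 0.000969), with 7-day replicate 3 the high library. Trpm2, a channel opened by oxidative stress (ENSMUSG00000009292, chromosome 10, 77907722 to 77970563, minus strand), stood at 213, 176 and 156 CPM in sham and 363, 337 and 295 at 7 days (0.87 ± 0.16, edgeR adjusted p = 0.00449), and the calcium channel Cacna1d changed by 0.76 ± 0.14 (edgeR adjusted p = 0.00564). Of 11 purinergic genes 2 were higher. P2rx4, an ATP-gated channel (ENSMUSG00000029470, chromosome 5, 122707544 to 122729738, plus strand), stood at 92.5, 101 and 83.4 CPM in sham and 216, 174 and 262 at 7 days (1.24 ± 0.18, edgeR adjusted p = 0.000998). P2ry2, a receptor for ATP and UTP, stood at 0, 0.229 and 0 CPM in sham and 1.89, 2.64 and 2.41 at 7 days (edgeR adjusted p = 0.0029), with counts in only 1 sham library.

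Markers of other cell types were lower at 7 days than in sham more often than higher. In pools of nuclei, fewer nuclei of a type and less RNA per nucleus cannot be told apart. Of 17 tested neuron markers 9 were lower and 0 higher, against 4.67% lower among all genes, and the list summed to 1903, 2349.8 and 3578 CPM in sham and 1248, 1337 and 1158 CPM at 7 days. The count of lower neuron markers was 4 to 12 with 1 library left out, and 9 without sham replicate 4. Map2, the dendritic microtubule protein (ENSMUSG00000015222, chromosome 1, 66175273 to 66442583, plus strand), stood at 152, 148 and 188 CPM in sham and 67, 59 and 73.3 at 7 days (-1.29 ± 0.2, edgeR adjusted p = 0.00143), with no overlap and a call under every setting tried. Grin2b, an NMDA receptor subunit, stood at 43.4, 55.1 and 118 CPM in sham and 24.9, 23.1 and 25.7 at 7 days (-1.55 ± 0.3, edgeR adjusted p = 0.00677), and changed by -1.01 (edgeR adjusted p = 0.00667) without sham replicate 4. Of 14 oligodendrocyte markers 6 were lower (1 to 8 with 1 library left out), and of 15 astrocyte markers 4 (2 to 6). Unlike the neuron count, these counts fell without sham replicate 4, to 1 oligodendrocyte and 2 astrocyte markers. Astrocyte markers summed to 855, 1957 and 5292 CPM in sham and 2039.9, 1911 and 1813 CPM at 7 days, so the sham libraries spanned the 7-day range.

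**Figure D4:**
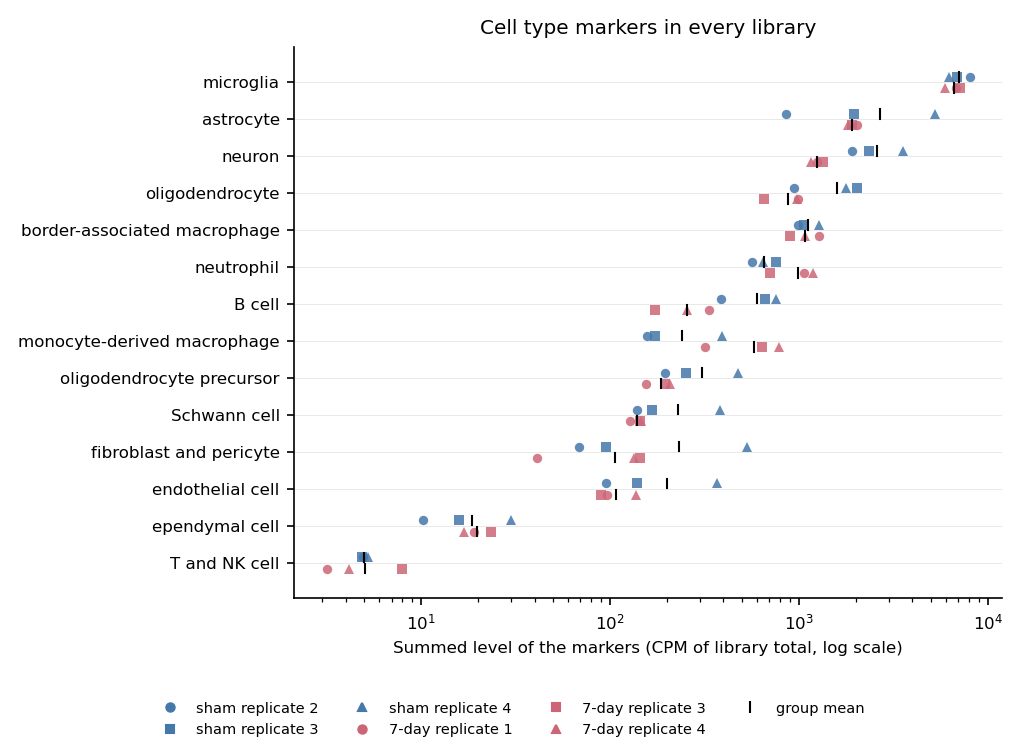
Summed CPM of the library total (log axis) of each marker list in each of the 6 libraries, with 1 point per library and sham and 7 days in separate colours. Microglial sums are alike in both groups, neuron sums are lower in all 3 injured libraries, and sham replicate 4 is the highest sham library for neuron, astrocyte, endothelial and fibroblast markers.

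Vessel, border and blood cell markers showed no common direction. Endothelial markers summed to 95.4, 139 and 368 CPM in sham and 96.5, 89.6 and 137 CPM at 7 days, and 2 of 15 were lower. Without sham replicate 4, 1 was lower and 1 higher, and the list median went from -0.51 to 0.46. Of 11 monocyte markers 2 were higher, Fn1 and Lyz2, the lysozyme of myeloid cells (ENSMUSG00000069516, chromosome 10, 117277331 to 117282321, minus strand) at 45.1, 45.9 and 47.9 CPM in sham and 95.3, 146 and 189 at 7 days (1.63 ± 0.25, edgeR adjusted p = 0.00143). The defining monocyte receptor Ccr2 was not called, as given above. Of 10 border macrophage markers 1, Ms4a7, was higher (1.27 ± 0.35, edgeR adjusted p = 0.0363), lost without sham replicate 2 (1.11, 0.0619), sham replicate 3 (0.91, 0.0907), 7-day replicate 1 (1.42, 0.0536), 7-day replicate 3 (1.26, 0.0683) or 7-day replicate 4 (1.08, 0.123). The other call was Lyve1, which was lower (-2.2 ± 0.52, edgeR adjusted p = 0.0187) and lost without sham replicate 4 (-1.44, 0.0569), 7-day replicate 3 (-2.17, 0.0553) or 7-day replicate 4 (-1.84, 0.0636). Of 4 B cell markers 3 were lower: Ighm, the heavy chain of immunoglobulin M (ENSMUSG00000076617, chromosome 12, 113418558 to 113422730, minus strand), stood at 229, 422 and 552 CPM in sham and 221, 114 and 145 at 7 days (-1.33 ± 0.28, edgeR adjusted p = 0.0109), Bank1 (ENSMUSG00000037922, chromosome 3, 136053363 to 136326066, minus strand) at 131, 123 and 197 CPM in sham and 59.9, 29.1 and 29.6 at 7 days (-1.93 ± 0.29, edgeR adjusted p = 0.00132). The third was Ighd at 45, 58.1 and 84.8 CPM in sham and 37.7, 10.7 and 17.9 at 7 days (-1.51 ± 0.36, edgeR adjusted p = 0.0194), lost without 7-day replicate 3 (-1.18, 0.0513) or 7-day replicate 4 (-1.41, 0.0713). Of 5 neutrophil markers edgeR called 0 (1 higher at an unadjusted p under 0.05, and 1 by DESeq2). Vessel-wall and meningeal markers, 15 of fibroblasts and pericytes, summed to 69.1, 95.3 and 536 CPM in sham and 41.2, 144 and 135 CPM at 7 days. Of the 14 tested 1, Anpep, was higher (1.71 ± 0.42, edgeR adjusted p = 0.0226), lost without sham replicate 3 (1.44, 0.0661) or 7-day replicate 4 (1.21, 0.108).

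Set against the other times, more genes differed from 3 days than from 14 days. Against 3 days 1079 genes were higher (5.85%) and 1387 lower (7.52%), and against 14 days 154 were higher (0.835%) and 250 lower (1.35%). The number against 14 days was fragile: it fell from 404 in all to 1 without 14-day replicate 1, and was 6 and 7 without 7-day replicates 1 and 3, 33 and 34 without 14-day replicates 3 and 2, and 231 and 254 without 3-day replicates 1 and 2. It was 1167 and 1774 without sham replicates 2 and 4, which enter this comparison through the shared spread and the scaling. Of 24 homeostatic genes 11 were higher and 0 lower than at 3 days, P2ry12 with a difference of 1.11 (edgeR adjusted p = 0.0386). Of 27 interferon-stimulated genes 16 were lower than at 3 days, Ifit2 with -1.5 ± 0.25 (edgeR adjusted p = 0.00263), and 3 were higher than at 14 days, Ifit3 with 1.25 ± 0.29 (edgeR adjusted p = 0.0399). Of 24 damage-associated genes edgeR called 0 between 7 and 14 days (3 higher and 5 lower at an unadjusted p under 0.05, 2 lower by DESeq2), while 5 were higher and 2 lower than at 3 days. Endothelial markers were low at 7 days: 14 of 15 were lower than at 3 days and 11 lower than at 14 days. Their sums were 700.3 ± 337 CPM at 3 days, 108 ± 25.7 at 7 days and 631 ± 0.560 at 14 days (SD, n = 3).

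Few genes had their extreme at 7 days. In 19 genes (0.103%) the 7-day level was higher than in each of the other 3 groups, and in 38 (0.206%) lower, with all 3 tests called. These counts ranged from 0 to 156 and from 0 to 181 with 1 library of any group left out. Snrnp70, a protein of the U1 splicing particle (ENSMUSG00000063511, chromosome 7, 45376453 to 45395742, minus strand), averaged 507 ± 155 (sham), 568 ± 75.5 (3 days), 1000.3 ± 97.3 (7 days) and 482 ± 50.6 CPM (14 days; SD, n = 3 each). Its 7-day level was 0.98 ± 0.2 from sham (edgeR adjusted p = 0.00866), 0.82 ± 0.2 from 3 days (edgeR adjusted p = 0.0171) and 1.05 ± 0.2 from 14 days (edgeR adjusted p = 0.02). Nectin4, an adhesion protein (ENSMUSG00000006411, chromosome 1, 171370099 to 171388598, plus strand), stood at 14 ± 3.29, 16.1 ± 2.76, 36.3 ± 6.96 and 14.7 ± 1.97 CPM in the same order. On the low side, Pecam1, the endothelial adhesion protein CD31 (ENSMUSG00000020717, chromosome 11, 106654217 to 106750628, minus strand), stood at 26.7 ± 13.7, 53.6 ± 13.7, 8.61 ± 3.46 and 26.8 ± 2.81 CPM, and was -1.63 ± 0.35 from sham (edgeR adjusted p = 0.0117). Map2 was also lowest at 7 days, at 66.4 ± 7.16 CPM.

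**Figure D5:**
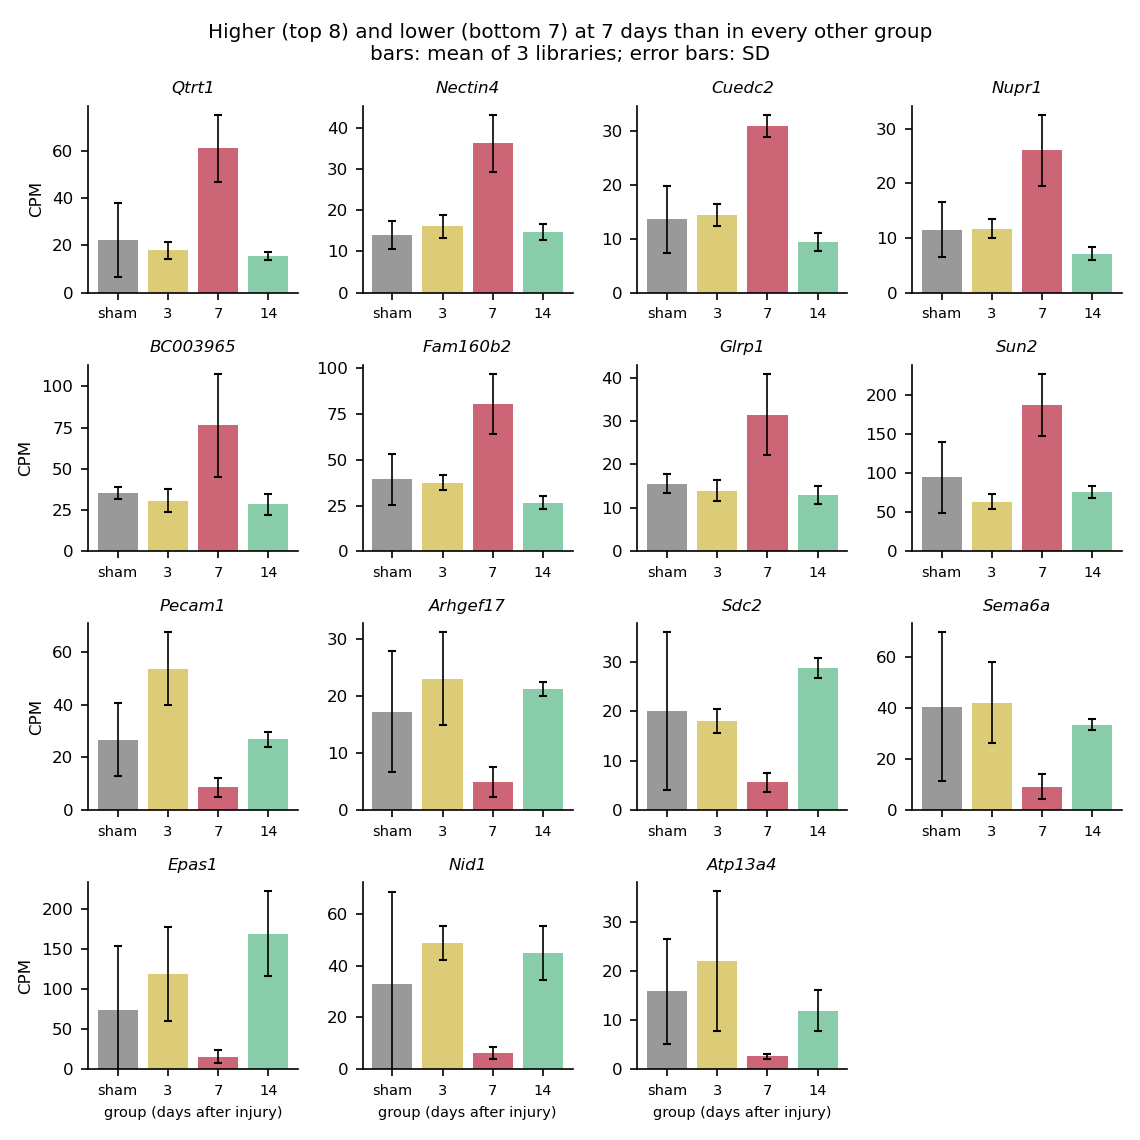
Mean level in each of the 4 groups (CPM) for 8 genes higher and 7 of the genes lower at 7 days than in every other group, with bars for the mean of 3 libraries and error bars for the SD, ended at 0 where they would pass it. Nectin4 reaches 36.3 CPM at 7 days against means from 14 to 16.1 CPM in the other groups, and Pecam1 lies at 8.61 CPM against 26.7 to 53.6 CPM.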

How the data were processed

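GFP-positive nuclei gave 12 RNA libraries, per the labels. The authors deposited a raw count table over Ensembl genes (unit: count) and RPKM, the counts divided by gene length and library total. The submitters' processing notes name featureCounts 1.4.6-p3 and, as builds, GRCm38 and mm10. Aligner, strand setting and treatment of multiply matching reads: not given in the sources used here. Overlaps with genes on the opposite strand are marked for some genes only, and Grn, Cxcl16 and Fn1 are among the others that have them. In R 4.3.3, edgeR 4.0.16 kept genes that passed filterByExpr (18451 of 49585, with 99.6% of counts), applied TMM and fitted 4 groups over all 12 libraries. The biological coefficient of variation was 0.271. Standard errors equal the change over the root of the F statistic. Positions come from the GENCODE annotation of GRCm38.

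Named genes are the 15 largest rises and falls whose groups do not overlap (mean of 10 CPM or more), the 6 largest each way in CPM, up to 4 called members per list, and 8 genes each way at their extreme at 7 days. Some of them are not reported here. Other genes named were chosen after their values were seen. The members and lists were chosen with earlier results of these data known. Alternatives were DESeq2 1.42.0, limma 3.58.1 on log2 RPKM, other size factors and filters, the replicate number as a block, the Y-linked sum as a covariate, the 6 libraries alone, and each library left out. The fit was tested on simulated data with the same spread in all groups and no outlying library. That test cannot show how the fit behaves with the uneven spread of these libraries. Figures used Python 3.11.15 and matplotlib 3.10.9.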

Additional observations from a re-analysis of the deposited data

Results flagged for a closer look

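Pecam1, the endothelial adhesion gene, moved in opposite directions at 3 and at 7 days. It averaged 26.7 ± 13.7 (sham), 53.6 ± 13.7 (3 days), 8.61 ± 3.46 (7 days) and 26.8 ± 2.81 CPM (14 days; SD, n = 3 each). Over sham the log2 fold change of the 3-day libraries was 1.02 ± 0.33 (edgeR adjusted p = 0.0399), and that of the 7-day libraries -1.63 ± 0.35 (edgeR adjusted p = 0.0117). The fall at 7 days was not called in the fit of only sham and 7 days (edgeR adjusted p = 0.0861). Tested directly, 7 days differed from 3 days by -2.66 ± 0.35 (edgeR adjusted p = 0.000803), and both contrasts with sham share its libraries. The sums of 15 endothelial markers, a cell type that Pecam1 itself marks, were lower at 7 days (108 ± 25.7 CPM) than at 3 days (700.3 ± 337 CPM). Against sham they overlapped: 95.4, 139 and 368 CPM in sham and 96.5, 89.6 and 137 CPM at 7 days. The part of these markers in the Pecam1 values was not tested.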

How the results depend on the processing

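Against sham, 851 genes were higher and 861 lower. These counts were 1118 and 1402 with DESeq2, 1337 and 1552 with no filter on low counts, and 115 and 57 in a fit of only the 2 groups compared. On log2 RPKM they were 663 and 474 with a pseudocount of 1 and 651 and 418 with 0.1, so the share of calls that were higher was 58.3% and 60.9% there against 49.7%. Leaving out 1 of the 6 libraries gave 453 to 1480 higher and 324 to 1585 lower. The 2466 calls against 3 days became 564 to 2490 with 1 library of the 2 groups left out, and 3595 and 4539 without sham replicates 2 and 4. The 404 calls against 14 days were 1061 with DESeq2, 1562 with no filter, 1608 with the replicate block, 1827 in the fit of the 2 groups, 218 on RPKM with a pseudocount of 0.1, 1 to 301 with 1 library of the 2 groups left out, and 1167 and 1774 without sham replicates 2 and 4. Genes higher at 7 days than in every other group numbered 19, but 40 with DESeq2, 120 with no filter, 128 with the replicate block, 9 and 5 on RPKM, and 0 to 156 with 1 library left out. Those lower numbered 38, but 142, 288, 185, 6 and 10 under the same settings, and 0 to 181. The cause was not tested. Of 160 called genes named by the rule, 0 changed direction under any of the 15 settings. DESeq2 lost 1 of their calls, each RPKM setting 39, the Y-linked covariate 9, the fit of 6 libraries 100 of 157, and leaving out 1 library 7 to 49. The replicate numbers 3 and 4 are shared by both groups, and deviations of same-numbered libraries correlated at -0.298 and 0.00142. So few pairs cannot decide whether the numbers pair the libraries. With the replicate block 818 genes were higher and 754 lower than sham, and 14 of the 160 calls were lost.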

Other observations

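Of the 8 named genes at their highest at 7 days, Nectin4 kept its call against sham when any 1 of the 6 libraries was left out, and the other 7 did not. This covers the test against sham only. Without 7-day replicate 3, 14-day replicate 1 or 14-day replicate 3, 0 genes, Nectin4 included, were called higher at 7 days than in every other group. Qtrt1, a subunit of the enzyme that places queuosine in transfer RNA, averaged 22.2 ± 15.8 (sham), 17.9 ± 3.52 (3 days), 61 ± 14.3 (7 days) and 15.5 ± 1.82 CPM (14 days; SD, n = 3 each). Its change over sham was 1.43 ± 0.39 (edgeR adjusted p = 0.0332), lost without sham replicate 3 (1.31, 0.0805), 7-day replicate 1 (1.39, 0.0952) or 7-day replicate 3 (1.27, 0.0877). Sun2, which ties the nuclear envelope to the cytoskeleton, averaged 94.6 ± 45.6, 63.7 ± 9.19, 188 ± 39.7 and 76 ± 7.06 CPM in that order. Sun2 changed by 0.98 ± 0.27 (edgeR adjusted p = 0.0363), lost without sham replicate 3 (0.87, 0.0903), sham replicate 4 (0.71, 0.0759), 7-day replicate 1 (1.0, 0.0898) or 7-day replicate 3 (0.81, 0.106). Nupr1, a stress-induced chromatin protein, averaged 11.5 ± 5.06, 11.7 ± 1.73, 26 ± 6.55 and 7.14 ± 1.18 CPM. Nupr1 changed by 1.15 ± 0.32 (edgeR adjusted p = 0.0358), lost without sham replicate 3 (1.08, 0.0783), sham replicate 4 (0.88, 0.078), 7-day replicate 1 (0.97, 0.134) or 7-day replicate 4 (1.11, 0.0891). Cuedc2 averaged 13.6 ± 6.21, 14.4 ± 2.07, 30.9 ± 2.11 and 9.4 ± 1.72 CPM. Cuedc2 changed by 1.16 ± 0.31 (edgeR adjusted p = 0.0292), lost without 7-day replicate 1 (1.11, 0.091), 7-day replicate 3 (1.19, 0.0539) or 7-day replicate 4 (1.15, 0.0717). BC003965 (changed by 1.1 ± 0.28, edgeR adjusted p = 0.0245) was lost without 7-day replicate 1 (1.17, 0.0508) or 7-day replicate 3 (0.73, 0.0944). Fam160b2 (1.03 ± 0.24, edgeR adjusted p = 0.0188) was lost without sham replicate 3 (0.9, 0.0549), 7-day replicate 1 (1.04, 0.0518) or 7-day replicate 3 (0.86, 0.0623), and Glrp1 (1.0 ± 0.26, edgeR adjusted p = 0.0286) without sham replicate 3 (0.97, 0.0582), sham replicate 4 (0.9, 0.0579), 7-day replicate 1 (1.08, 0.0548) or 7-day replicate 3 (0.73, 0.0993).

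Atp13a4, a P-type ATPase, averaged 15.8 ± 10.6, 22 ± 14.2, 2.61 ± 0.555 and 11.9 ± 4.16 CPM in the same order, with a change over sham of -2.55 ± 0.53 (edgeR adjusted p = 0.00952). Lhfpl3, a membrane protein of oligodendrocyte precursors, stood at 9.08, 10.7 and 23 CPM in sham and 3.56, 2.82 and 4.68 at 7 days (-1.92 ± 0.38, edgeR adjusted p = 0.00753). Both calls against sham held when any 1 of the 6 libraries was left out.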
